A study of Mus musculus with 12 samples.

Results

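H3K27ac, the acetylated form of lysine 27 of histone H3 that marks active promoters and enhancers, and binding of the transcription factor KLF4 were examined around 9 genes of naive mouse pluripotency: Tfcp2l1, Nr5a2, Nr0b1, Prdm14, Gbx2, Spic, Tcl1, Fbxo15 and Pecam1. They are 9 of 21631 protein-coding RefSeq genes on chromosomes 1 to 19 and X, chosen by name, and each was taken as its RefSeq span with 10 kb on each side. The measurements came from chromatin immunoprecipitation followed by sequencing (ChIP-seq). V6.5 mouse embryonic stem cells (ESCs) carried a lentiviral, doxycycline-inducible Cas9 with guides, which per the labels target either Klf4 by itself or the trio Klf2, Klf4 and Klf5, and were grown as picked clones on irradiated feeder cells with LIF. H3K27ac was measured in 2 replicates before doxycycline (0 h) and 2 replicates after 24 h of doxycycline, so every ESC sample carried the vector and the 0 h cells were not parental cells. Sample titles name the later samples both TKO and KLF4 KO, and which genes were cut is not settled by them. iPSCs, the pluripotent cells that reprogramming of somatic cells induces, gave 2 replicates for KLF4 and 2 for H3K27ac, and 4 input libraries completed the 12 samples. All groups are labelled as cultured in 2i, a pair of inhibitors of MEK and GSK3 that holds mouse cells in the naive state.

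Naive pluripotency is the state of the cells of the early epiblast, and it is held by a set of transcription factors that bind each other's enhancers and also those of KLF2, KLF4 and KLF5. LIF feeds into this set through STAT3, which acts on Tfcp2l1, Gbx2 and Klf4. Among the 9 genes, Tfcp2l1 encodes a CP2-family transcription factor, Nr5a2 the orphan nuclear receptor LRH-1, Nr0b1 the corepressor DAX1, Prdm14 a PR-domain protein that restrains FGF signalling and DNA methylation, Gbx2 a homeobox factor and Spic an ETS-family factor known also from red-pulp macrophages. The remaining members are not transcription factors: Tcl1 is a co-activator of the kinase AKT, Fbxo15 an F-box protein whose gene is a long-used reporter of the pluripotent state, and Pecam1 the adhesion molecule CD31 of naive stem cells and endothelium.

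The RefSeq table of start regions held entries for 6 of the 9 genes, covering 250 bases before to 50 after a gene start. The 5 windows below are shown because they separate starts that lay inside an iPSC KLF4 peak (Tfcp2l1, the inner start of Nr5a2, and Tcl1) from starts that did not (Spic and Nr0b1). They are from GRCm38.p6, whose primary assembly is that of mm10, and run 5′ to 3′ on the strand of the gene. Capitals mark matches to GGGNGTG, the core of KLF-family sites, or to its reverse complement CACNCCC.
Tfcp2l1, chr1:118627695-118627994, plus strand: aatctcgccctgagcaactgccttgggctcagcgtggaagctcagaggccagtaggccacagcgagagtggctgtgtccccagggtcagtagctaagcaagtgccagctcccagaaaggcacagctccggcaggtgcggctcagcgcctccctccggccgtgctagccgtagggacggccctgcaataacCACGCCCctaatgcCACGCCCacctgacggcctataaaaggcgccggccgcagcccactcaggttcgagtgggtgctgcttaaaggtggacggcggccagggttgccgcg
Nr5a2 inner start, chr1:136953581-136953880, minus strand: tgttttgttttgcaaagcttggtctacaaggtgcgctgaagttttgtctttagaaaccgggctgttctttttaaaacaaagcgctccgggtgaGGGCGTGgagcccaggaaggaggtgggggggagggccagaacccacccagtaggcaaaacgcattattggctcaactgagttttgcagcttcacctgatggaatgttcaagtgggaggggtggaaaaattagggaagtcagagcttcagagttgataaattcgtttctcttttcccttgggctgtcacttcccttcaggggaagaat
Tcl1, chr12:105222688-105222987, minus strand: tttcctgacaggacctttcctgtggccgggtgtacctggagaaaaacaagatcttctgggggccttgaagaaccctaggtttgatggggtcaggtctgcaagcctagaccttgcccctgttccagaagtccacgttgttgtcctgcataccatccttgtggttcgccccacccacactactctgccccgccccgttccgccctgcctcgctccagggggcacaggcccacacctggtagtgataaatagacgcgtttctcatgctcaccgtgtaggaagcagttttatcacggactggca
Spic, chr10:88682974-88683273, minus strand: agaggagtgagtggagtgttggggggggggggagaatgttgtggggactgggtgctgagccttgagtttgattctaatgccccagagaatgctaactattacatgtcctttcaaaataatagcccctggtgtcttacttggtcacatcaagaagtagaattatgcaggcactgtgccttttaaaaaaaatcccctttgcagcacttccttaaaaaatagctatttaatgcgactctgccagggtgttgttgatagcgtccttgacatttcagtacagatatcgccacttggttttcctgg
Nr0b1, chrX:86191525-86191824, plus strand: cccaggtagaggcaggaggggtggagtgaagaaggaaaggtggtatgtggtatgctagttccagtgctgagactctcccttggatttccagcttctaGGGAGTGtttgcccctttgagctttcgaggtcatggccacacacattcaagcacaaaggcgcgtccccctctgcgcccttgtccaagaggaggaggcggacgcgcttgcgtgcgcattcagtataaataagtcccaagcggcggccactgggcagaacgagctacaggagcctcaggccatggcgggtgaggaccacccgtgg

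The Tfcp2l1 window held 2 matches, whose first bases lay 60 and 46 bases before the start, and both were inside the KLF4 peak. The match at the inner Nr5a2 start began 157 bases before it and was also inside a KLF4 peak. Nr0b1 held 1 match, 153 bases before its start, with no KLF4 peak there. The Tcl1 window was covered by a KLF4 peak over all 300 of its bases and held no match to these letters. Of the 7 windows of the members, 3 held the motif, against 29.2% of 32851 windows in the table, and 3 overlapped a KLF4 peak, against 15.7%. In the table as a whole, the motif was in 47.7% of windows that overlapped a KLF4 peak and in 25.7% of the others. None of the 7 windows held AAGGTCA (the core site of ESRRB and NR5A2, in 4.72% of all windows), ATGCAAAT (the octamer bound by OCT4, in 1.74%) or TTCCNGGAA (a STAT3 site, in 1.15%), each searched on both strands. A match is a run of letters in these windows and says nothing on its own about binding.

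Only 1 deposited list stands for each ChIP group, so there is no replicate error, no test across replicates, and the read depth is unknown. The ESC lists hold 10 kb bins with an H3K27ac value and a whole number of unstated meaning, called the bin score here. The 0 h list held 49460 bins, 26812 of them with a value (median 4.65), and the 24 h list 47307 bins, 25611 with a value (median 4.05). How the values were normalized is not stated. A change is therefore given as the relative value, log2(24 h value / 0 h value) less the median of that log2 over all 22739 bins valued at both times. That median was -0.23, a ratio of 0.854. The relative value of a gene is the mean over its bins valued at both times, its SD is over bins, and a gene is called changed only past 0.32 on this log2 scale in either direction. All 8 markers listed for embryonic stem cells had a value at both times, with the highest value around each gene between 3.68 and 29.7 at 0 h. Of 12 markers of feeder fibroblasts, 5 had a value at 0 h (3.35 to 12.1), and Col1a2, Col6a3, Thy1, Postn, Pdgfra, Lum and Dcn had none.

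The ratio of 24 h to 0 h acetylation was below the median ratio of all bins at most, but not all, of the members. Of the 9 genes, 8 had a bin valued at both times, and 7 of these 8 had a relative value below 0, against 46.7% of 11243 protein-coding genes. The members' median was -0.21, against 0.02 over all measured genes. Spic, Tcl1 and Nr0b1 were past this threshold on the lower side (3 of 8, against 8.07% of genes), and none of the 8 on the higher side (9.45% of genes). Tcl1 and Nr0b1 rested on 1 bin each, whereas the share over genes also covers means over several bins. Over single bins, 8 of the 36 valued at both times were past it on the lower side, against 15.2% of all bins, and 1 on the higher side, against 15.4%. In bulk samples, fewer cells with the mark and less mark per cell cannot be told apart. The 36 bins held only 26 distinct runs of values, because neighbouring bins often share a value, so bins are not independent.

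**Figure D1:**
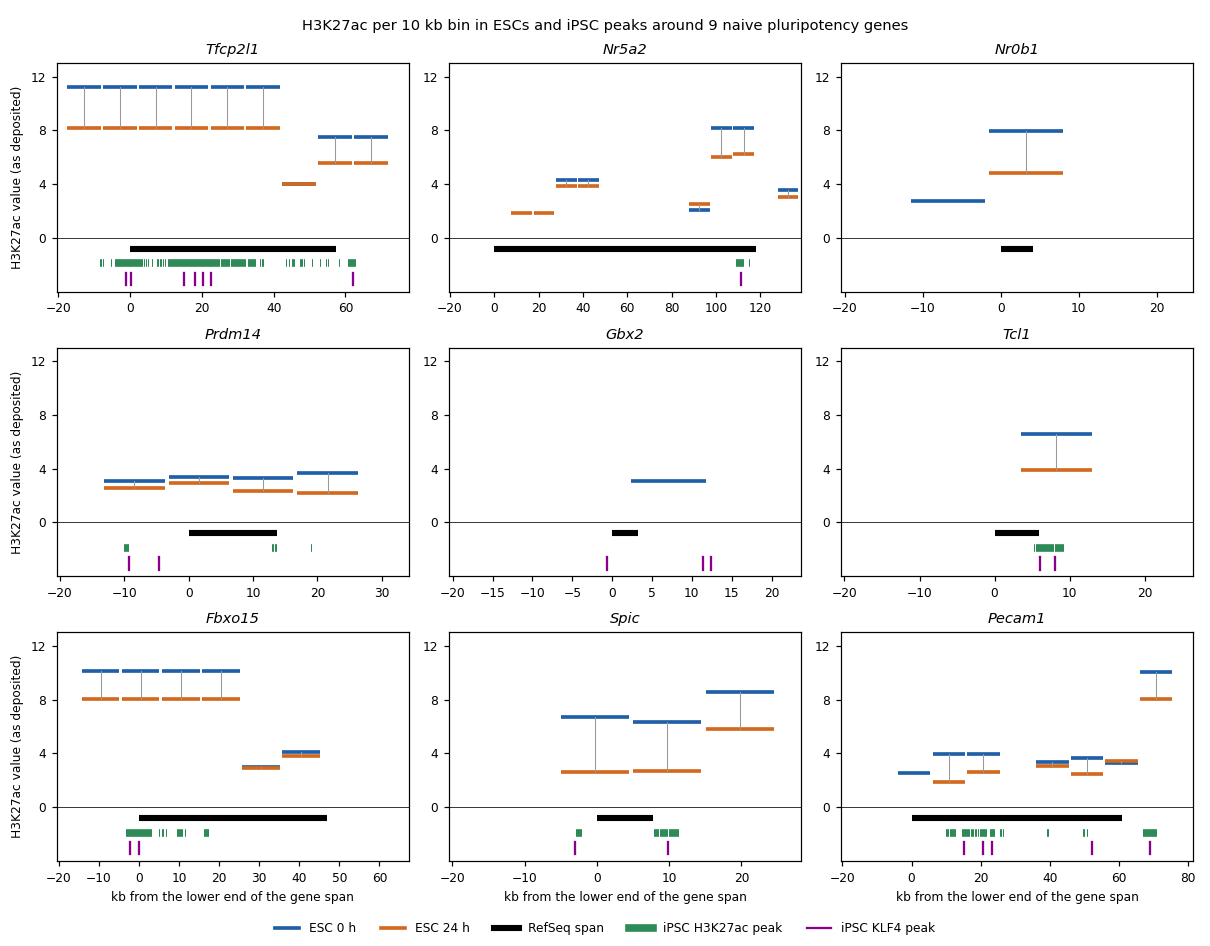
H3K27ac value as deposited (vertical axis) in each 10 kb bin around the 9 genes, with blue lines for ESCs at 0 h and orange lines for 24 h, against distance in kb from the lower-coordinate end of the gene span (black bar). Green blocks are iPSC H3K27ac peaks and purple ticks iPSC KLF4 peaks. The Tfcp2l1 panel carries the most peaks of both kinds while the Nr0b1 panel carries none.

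Tfcp2l1 (chromosome 1, 118627923 to 118685168) was the most acetylated member. Its first 6 bins shared 1 value, 11.2 at 0 h and 8.19 at 24 h, and the 0 h value was in the top 2.99% of valued bins. The next bin was at 4.02 and 3.99, and the last 2 bins shared 7.47 and 5.58. The ratio of the times was thus lower than that of all bins in 8 of its 9 bins, and above it only in the weakest one. The relative value was -0.17 (SD 0.15 over 9 bins), at percentile 19.5 of measured genes, and did not pass the threshold. It was -0.07 when bins of equal value counted once.

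Nr5a2 (chromosome 1, 136842562 to 136960448) was the only measured member above 0, and its bins differed from each other. The bin that holds its inner start and the neighbouring bin further into the gene were at 8.15 each at 0 h and at 6.26 and 6.04 at 24 h, while the next bin into the gene was at 2.09 and 2.55. Another pair of bins in the gene body shared 4.32 at 0 h and 3.89 at 24 h, and the last bin, beyond the outer start, was at 3.54 and 3.06. The bin that holds the outer start was listed at both times without a value. In 2 further bins of the gene body a value of 1.83 was present at 24 h and none at 0 h, where the lowest value of the 24 h list was 1.23. The relative value of the gene was 0.05 (SD 0.25 over 6 bins), with the inner-start bin at -0.15, its neighbour at -0.21 and the highest bin at 0.51. Its sign changed with the choice of bins: with bins under the lower quartile of either list left out it was -0.05, and from the highest value at each time it was -0.15.

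Nr0b1 (chromosome X, 86191775 to 86195947) was listed in 2 bins. The bin that holds the gene was at 7.93 at 0 h and 4.82 at 24 h, a relative value of -0.49 at percentile 3.58. The bin below it was at 2.76 at 0 h and had no value at 24 h. Both bins thus had a lower reading, or no value, at the later time.

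Prdm14 (chromosome 1, 13113428 to 13127163) carried low values throughout. In its 4 bins, from low to high coordinate, the 0 h values were 3.07, 3.41, 3.30 and 3.68 and the 24 h values 2.54, 2.95, 2.36 and 2.17. The difference between the times was thus largest in the bin at the high end, which also holds part of Ncoa2. The relative value was -0.21 (SD 0.25 over 4 bins), with bins from -0.54 to 0.02. Without flanks it was -0.12, and from the highest value at each time -0.09.

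Gbx2 (chromosome 1, 89927962 to 89931176) was nearly unlisted. A value of 3.10, below the 0 h median, was present in 1 bin at 0 h, and neither of its 2 bins was in the 24 h list. A bin absent from a list was not shown to lack acetylation, so no relative value is given.

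Spic (chromosome 10, 88675269 to 88683023) had the lowest relative value among the members, -0.83 (SD 0.44 over 3 bins), a ratio of 0.562 relative to all bins. Its bins were at 6.74, 6.30 and 8.59 at 0 h and at 2.59, 2.68 and 5.82 at 24 h. The 2 bins that hold the gene and its near flanks were at -1.15 and -1.01, and the third, beyond the upstream side, at -0.34. The gene ranked 73 from the lowest among 11243. The first 2 bins fell below the lower quartile of the 24 h list, so with such bins left out only the third counted and the value was -0.34. Markers of macrophages, which also express Spic, did not share 1 direction: Csf1r was at 0.45, Cd68 at 0.04 and Spi1 at -0.28, and Adgre1, Ptprc and Lyz2 had no value at either time. Their part in the result was not tested.

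Tcl1 (chromosome 12, 105216753 to 105222737) had a value in 1 of its 4 bins, the one over its start, at 6.56 at 0 h and 3.90 at 24 h. The relative value was -0.52, at percentile 2.89. The other 3 bins were listed at both times without a value, 1 of them holding the neighbouring gene Tcl1b4.

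Fbxo15 (chromosome 18, 84934552 to 84981476) was among the strongest members, and close to the median of all bins in its change. The 4 bins around its lower end shared 10.1 at 0 h and 8.03 at 24 h, and the next 2 bins were at 3.01 and 2.89 and at 4.11 and 3.82. The relative value was -0.02 (SD 0.13 over 6 bins), from -0.11 in the 4 strong bins to 0.17. It turned to 0.06 when bins of equal value counted once, and to 0.02 with 25 kb flanks. The gene Timm21 lies inside this window.

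Pecam1 (chromosome 11, 106654213 to 106715281) differed along its length. The strongest bin, past the high end of the gene, was at 10.0 at 0 h and 8.05 at 24 h, a relative value of -0.09. The 5 bins that touch the gene and were valued at both times lay between 3.31 and 3.93 at 0 h. Their 24 h values were, from low to high coordinate, 1.88, 2.62, 3.04, 2.50 and 3.47. These bins thus held both the lowest relative value (-0.84) and the highest (0.29), the latter in a bin reaching past the high end. The mean for the gene was -0.21 (SD 0.39 over 6 bins). It was -0.09, the value of the strongest bin, with bins under the lower quartile left out. A further bin at the low end was at 2.53 at 0 h and had no value at 24 h. Among endothelial markers, which Pecam1 belongs to in other tissues, Cdh5, Kdr, Tie1 and Emcn had no value at either time, Tek was at 0.26 and Vwf at 0.08.

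**Figure D2:**
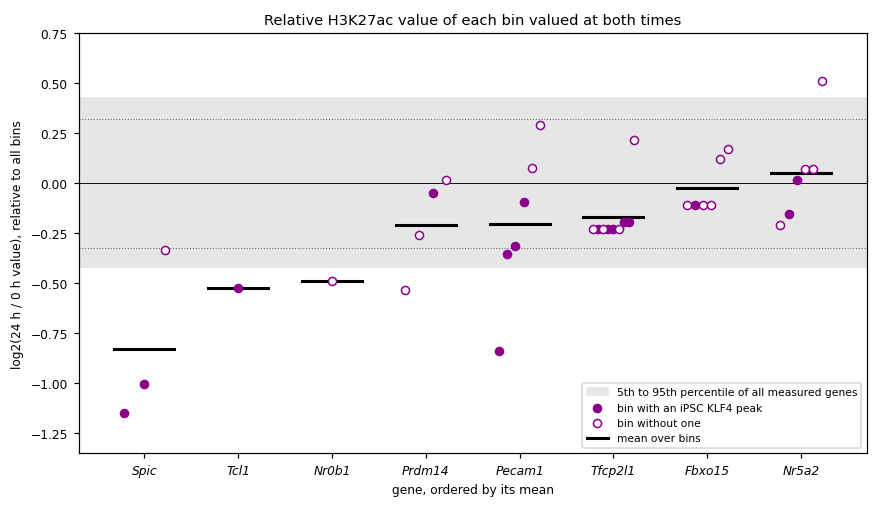
Relative H3K27ac value, log2 of 24 h over 0 h less the median of all bins (vertical axis), for each bin of the 8 measured genes. Filled points are bins with an iPSC KLF4 peak, open points bins without one, black lines the mean over bins, the grey band the 5th to 95th percentile of 11243 genes (-0.42 to 0.43) and dotted lines 0.32 on either side of 0. Spic, Tcl1 and Nr0b1 lie below the band.

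Ordered from the lowest, the members stood as Spic, Tcl1, Nr0b1, Prdm14 and Pecam1 (both -0.21), Tfcp2l1, Fbxo15 and Nr5a2. From Prdm14 to Nr5a2, neighbours in this order were closer to each other than the SD over bins of either gene, except Tfcp2l1 and Fbxo15, which lay about 1 such SD apart. Shared values enter these SDs once per bin, and the 9 bins of Tfcp2l1 and the 6 of Fbxo15 each held 3 distinct runs. The SD is thus only a rough scale here. Around the 9 genes, 3 bins were valued at 0 h only, 1 each at Nr0b1, Gbx2 and Pecam1, and 2 were valued at 24 h only, both at Nr5a2. Genes with a bin valued at 0 h only were 3 of 9, against 28.3% of 12259 genes with a 0 h value. Genes with a bin valued at 24 h only were 1 of 9, against 20.8% of 12800.

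For comparison, 22 other genes of the naive network had a median of -0.09, with 16 of 22 below 0, and 1 was past the threshold in each direction (Dppa4 at -0.43 and Klf5 at 0.43). Pou5f1, which encodes OCT4, was at -0.21 and Esrrb, an orphan nuclear receptor gene, at -0.06. Of 15 formative and primed genes, 10 were measured, with a median of -0.07 and 7 below 0. In that list, 3 genes passed the threshold on the lower side and 1 on the higher side. The lower ones were Foxd3, a forkhead factor gene, at -0.82, Lefty2, an inhibitor of Nodal, at -0.91 from 2 bins, and Otx2 at -0.324. On the higher side, Lef1 was at 1.02 from 1 bin. No test of a difference between the lists was possible with 1 list per group. Over 4 measures (mean 0 h value, relative value, and numbers of iPSC KLF4 and H3K27ac peaks, each standardised over 4934 genes with at least 3 bins), the genes nearest to Spic were C130074G19Rik (-0.67), Foxd3 and Cd248 (-0.77), at distances of 0.88, 0.92 and 1.00 SD units. Those nearest to Nr5a2 were Akip1, Naa60 and Dcaf12, at 0.14, 0.15 and 0.18, with relative values of 0.02, 0.03 and 0.06.

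In iPSCs, 24 KLF4 peaks lay around the members, and 8 of the 9 genes had at least 1, against 53.2% of protein-coding genes. At least 2 peaks were found at 7 of 9 genes, against 27.3%. Among genes with a bin valued at both times the share with a KLF4 peak was 74.7%, and it was 7 of 8 for the members. Per 100 kb of gene and flanks there were 4.82 peaks at the members, 6.51 at the other network genes, 3.06 at the formative genes and 1.55 over all protein-coding genes. The members' peaks had a median width of 227 bp (112 to 808), against 262 bp in the whole list, and 11 of the 24 had their centre inside a gene span. Whether a peak lies in an exon or an intron was not analysed here.

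KLF4 peaks lay over the gene start at Tfcp2l1, at the inner start of Nr5a2 and at Tcl1, and over the lower end of the span at Fbxo15. Tfcp2l1 had 7 peaks: 1 of 131 bp centred 1311 bp before its start, 1 of 461 bp over the start, 4 inside the gene between 14881 and 22384 bp from the start, and 1 of 401 bp centred 4936 bp past the other end. The only peak at Nr5a2 (136953515 to 136954059) was 545 bp wide, in the top 6.14% by width, and covered the inner start, whereas the outer start had none. Tcl1 had a peak of 413 bp over its start (105222643 to 105223055) and another of 212 bp centred 2039 bp before it. The peak at the lower end of Fbxo15 (84934233 to 84935040) was the widest at any member, 808 bp, ranking 212 of 21563. Its other peak, 209 bp, was centred 2113 bp outside the same end.

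Spic had no KLF4 peak at its start. Its peak of 336 bp (88684989 to 88685324) was centred 2133 bp before the start, and its peak of 405 bp (88672072 to 88672476) was centred 2995 bp past the other end. These 2 peaks lay in the 2 bins with the lowest relative values at any member. Pecam1 had 5 peaks of 134 to 242 bp, 4 inside the gene and 1 centred 8015 bp past its high end. Prdm14 had peaks centred 4672 and 9283 bp outside its low end, the farther one 441 bp wide. Gbx2 had 3 peaks, the nearest of 308 bp, centred 639 bp outside its low end. Nr0b1 had none, and the nearest KLF4 peak was 618 kb from the gene.

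**Figure D3:**
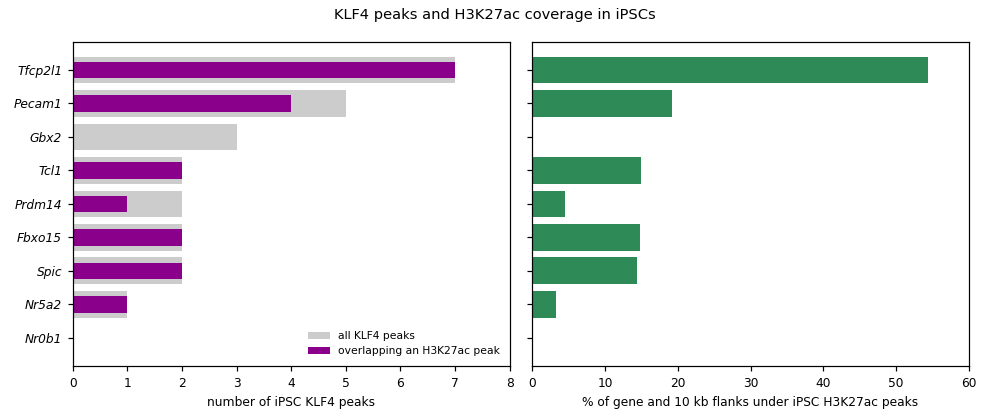
Left, the number of iPSC KLF4 peaks around each gene (grey bars), with those that overlap an iPSC H3K27ac peak in purple. Right, the percentage of the gene and its 10 kb flanks under iPSC H3K27ac peaks, from 54.4% at Tfcp2l1 to none at Gbx2 and Nr0b1.

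Most KLF4 peaks of the members lay in acetylated chromatin of iPSCs: 19 of 24 (79.2%) overlapped an H3K27ac peak, against 48.7% of all KLF4 peaks. The exceptions were the 3 peaks at Gbx2, 1 at Prdm14 and 1 at Pecam1. Of the 19, 7 were at Tfcp2l1. The members had 105 H3K27ac peaks, found at 7 of 9 genes, against 60.4% of protein-coding genes with at least 1. Tfcp2l1 alone had 51, covering 54.4% of its window, and its widest (118639245 to 118653000) was 13756 bp, ranking 8 of 55466 peaks. Fbxo15 had 11 peaks, 1 of them 6433 bp wide over its lower end. Pecam1 had 23 peaks, which covered 19.2% of its window. Tcl1, Spic, Prdm14 and Nr5a2 had 4, 5, 5 and 6, covering 15.0%, 14.5%, 4.52% and 3.22%. Gbx2 and Nr0b1 had none, with the nearest H3K27ac peak 126 kb and 414 kb away.

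At Nr0b1 the ESC bin at 7.93 was in the top 14.0% of valued 0 h bins, and no iPSC peak was called in the whole window of the gene. Single bins without an iPSC H3K27ac peak were also found at higher 0 h values in windows that held peaks elsewhere, at Fbxo15 (10.1), Spic (8.59) and Nr5a2 (8.15). The Fbxo15 and Nr5a2 bins shared their 0 h value with neighbouring bins that held such peaks, so they were not separate readings. Chromosome X held 1.45% of the iPSC KLF4 peaks, 2.37% of the iPSC H3K27ac peaks and 2.53% of the valued 0 h bins. Over all members, 27 of 39 bins with a 0 h value (69.2%) held an iPSC H3K27ac peak, against 73.6% of all such bins. The cell lines, the peak calls and the bin width differ between these lists and cannot be told apart.

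Within the members, bins with an iPSC KLF4 peak were mostly below 0. Of 16 such bins valued at both times, 15 were below 0, with a median of -0.23 and a range of -1.15 to 0.01. The exception was the bin beyond the outer start of Nr5a2, whose peak lies outside the 10 kb flank. Tfcp2l1 gave 5 of the 16, which held only the shared values -0.23 and -0.19, so these bins are not independent. Of 20 bins without KLF4, 11 were below 0, with a median of -0.11 and a range of -0.54 to 0.51. Over all bins, 63.4% with KLF4 and 41.5% without were below 0, with medians of -0.08 and 0.06. Within genes, the mean of the KLF4 bins was below that of the others at Spic (-1.08 and -0.34), Pecam1 (-0.40 and 0.18) and Nr5a2 (-0.07 and 0.11). It was also below at Fbxo15 (-0.11 and -0.01) and Tfcp2l1 (-0.21 and -0.12), and above at Prdm14 (-0.05 and -0.26). Bins with and without KLF4 numbered 2 and 1 at Spic, 4 and 2 at Pecam1, and 2 and 4 at Nr5a2. They numbered 1 and 5 at Fbxo15, 5 and 4 at Tfcp2l1, and 1 and 3 at Prdm14, so some of these means are single bins. At Fbxo15 and Tfcp2l1, KLF4 bins shared the values -0.11 and -0.23 with bins without KLF4. The gaps there came from weaker bins without KLF4, at 0.17 and 0.12 at Fbxo15 and 0.22 at Tfcp2l1. The KLF4 bins also had higher 0 h values, with medians of 7.10 and 4.32 among the members, and the part of level in these differences was not tested.

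The bin score was lower at 24 h around most members. Summed over the 9 genes it was 302 at 0 h and 243 at 24 h, so the 24 h list held 44.6% of the score of both times, against 47.5% over all bins, with bins absent from a list counted as 0. Counted so, the 24 h sum was lower at 8 of 9 genes, against 54.5% of 14028 protein-coding genes with a score, and the 24 h share was below that of all bins at the same 8, against 45.8%. Over bins listed at both times the share was 44.8% at the members and 47.8% in all such bins. Gbx2 had no such bin. Of the other 8 genes, 7 had a lower sum at 24 h over these bins, against 52.6% of 12479 protein-coding genes. The 24 h share was below that of all such bins at 7 of these 8 genes, against 43.9%. Of the members' 53 bins listed at both times, 31 had a lower score at 24 h, 18 an equal one and 4 a higher one, against 37.2%, 40.2% and 22.5% of all such bins.

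**Figure D4:**
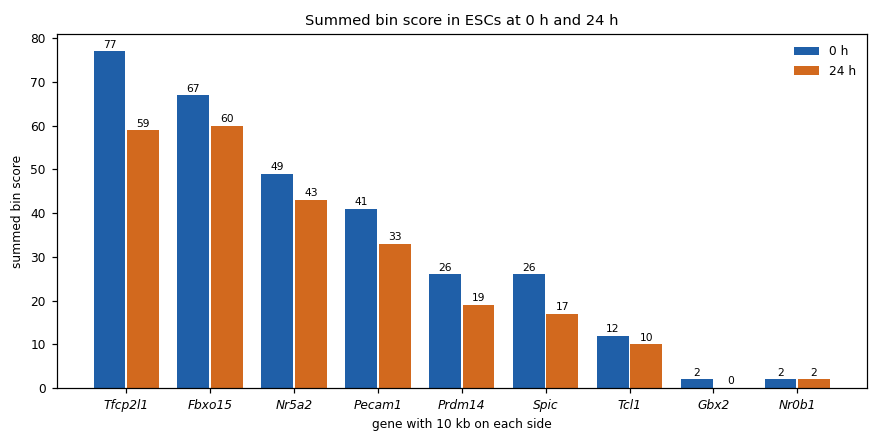
Summed bin score (a whole number per 10 kb bin whose meaning is not stated) over each gene and its 10 kb flanks, at 0 h (blue bars) and 24 h (orange bars). Tfcp2l1 shows the largest difference, 77 against 59, Nr0b1 is at 2 at both times, and Gbx2 has no 24 h bar because its bins were not in that list.

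Tfcp2l1 had the highest sum, 77 at 0 h and 59 at 24 h, a 24 h share of 43.4%. Its start bin alone was at 14 and 9. Fbxo15 followed with 67 and 60, of which 27 and 26 were in the single bin that holds its lower end, a score reached by 0.10% of 0 h bins. The 24 h share of Fbxo15 was 47.2%. Both shares lay inside the interquartile range over protein-coding genes with a score (41.7% to 52.9%). That range also includes genes with small summed scores, such as Nr0b1, so it is a loose reference for both. Spic had 26 and 17, the lowest share of the members listed at both times (39.5%), and its 2 KLF4 bins were at 10 and 6 and at 8 and 5. Prdm14 had 26 and 19 (42.2%), Pecam1 41 and 33 (44.6%), Nr5a2 49 and 43 (46.7%) and Tcl1 12 and 10 (45.5%). In Prdm14 the bin at the high end went from 6 to 2, the same bin that had its lowest relative H3K27ac value. Gbx2 had a score of 1 in each of 2 bins at 0 h and was not listed at 24 h, and Nr0b1 had a score of 1 in each of its 2 bins at both times. Over the 22 other network genes the 24 h share was 46.9%, and over the formative genes 47.8%.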

How the data were processed

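The study measured H3K27ac in ESCs at 0 h and 24 h and KLF4 and H3K27ac in iPSCs by ChIP-seq in 12 samples. The tools MACS2, Bowtie2, bedtools and SAMtools and the build mm10 are known per the submitters' processing notes. Their roles and versions, and how replicates were combined, are not given in the sources used here. The authors deposited the ESC lists as 10 columns with no header line: column 10 was read as H3K27ac signal and column 4 as a bin score of unstated meaning, and 5 further columns were not used. Where a bin has no signal, the smallest storable number stands in its place. The deposited iPSC lists hold peak positions only. Read depth is unknown and precision cannot be given.

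Gene spans came from RefSeq for GRCm38.p6. Bins and peaks counted at 1 bp or more of overlap with a span and 10 kb flanks. The alternatives (flanks, runs, summary, low bins, missing values, centring, peak width, overlap) are described in the closing section. The members and lists were chosen with earlier results of these data known, so they support nothing independently. All 9 members are named; others follow fixed lists or likeness. The relative value and the peak counts were checked on simulated data, with independent bins rather than the shared values seen here. Score shares and overlaps were not checked this way. Python 3.11.15, NumPy 2.4.6, pandas 2.3.3 and Matplotlib 3.10.9 were used.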

Additional observations from a re-analysis of the deposited data

How the results depend on the processing

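No paired analysis was possible because each list holds 1 value per group and none per replicate, and for the same reason no replicate could be left out. Values were set against the SD over all measured genes (0.27 log2 for relative values). The median relative value of the members lay between -0.43 and -0.17 under 11 alternatives. Those below 0 were 6 of 8 with 25 kb flanks or 1 bin per run, 7 of 7 with low bins left out and 8 of 9 with missing values filled. They were 7 or 8 of 8 with no flank, the median over bins, either other centring, or the highest value. The shares of all genes were 46.9% with 25 kb flanks, 46.4% with 1 bin per run and 48% with low bins left out. With missing values filled the share was 49.6%, with no flank 46.4%, with the median over bins 47.6% and from the highest value 50.5%. In 2 alternatives chosen after seeing the data, the members below 0 were 6 of 7 (without Spic) and 5 of 6 (members with 3 or more bins). Fbxo15 turned to 0.022 with 25 kb flanks and 0.062 with 1 bin per run of equal values. Nr5a2 turned to -0.053 with bins under the lower quartile of either list left out, -0.0089 when centred on bins without KLF4, -0.17 with no centring and -0.15 from the highest value around the gene. With no centring 83.7% of all genes were below 0, and with centring on bins without KLF4 59.3% were. Spic stayed below 0 throughout, but moved to -0.34 with low bins left out and from the highest values. Prdm14 had no bin left with low bins left out, and Gbx2 none listed at both times. With missing values set to the lowest of their list, Gbx2 was at -1.11.

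Without flanks, KLF4 peaks numbered 12, those overlapping H3K27ac 11 and members with a peak 5. The share of all genes with a peak is not given for this setting. The 53.2% above holds for windows with 10 kb flanks and is no reference for these 5. With peaks of median width or more, there were 11 KLF4 peaks, 10 of them overlapping, and 45 H3K27ac peaks. The other alternatives for peaks and scores kept the counts within 1.5 times and the members' 24 h score share between 44.7% and 45.0% without scaling. It was 47.1% with scores divided by their list totals, where all bins stand at 50%. The cause of these differences was not tested.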
